A study of Mus musculus with 12 samples.

Results

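The MHC class II genes measured here are H2-Aa, H2-Ab1 and H2-Eb1, which encode classical alpha and beta chains, H2-DMa and H2-DMb1, which encode the chains of the peptide editor H2-DM, Cd74, which encodes the invariant chain, and Ciita, which encodes their master transcriptional coactivator. They were chosen by name, and all 7 were found among the 33219 features of the count table. The samples were tumor cells isolated from subcutaneous tumors of MC38, a colon cancer line of C57BL/6 origin labelled as adenocarcinoma, and comprised 4 groups of 3 mice: WT with IgG, WT with anti-PD1 (labelled aPD1), A159V with IgG and A159V with anti-PD1. WT cells carried wild-type RAC1, and A159V cells carried the RAC1 A159V change, made homozygous by knock-in at the endogenous gene. The hosts were C57BL/6 mice aged 6 to 8 weeks at purchase, and the tumors were taken on day 13 after implantation. In the tumor experiment that the study describes, 100 µg of antibody was given every 3 days from day 3. Tumor cells were separated from the digested tissue with a tumor cell isolation kit, so host cells that passed the kit would also be in the libraries. The A159V line was 1 edited clone, clone 9 by default in the study's text, so clone and genotype cannot be told apart here. A point mutation is not visible in counts per gene, so the genotype labels could not be checked against the data.

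MHC class II molecules present peptides from endosomes to CD4+ T cells. Their alpha and beta chains assemble with the invariant chain, which blocks the groove until proteases remove it, and H2-DM then exchanges the remaining fragment for other peptides. Macrophages, dendritic cells and B cells express class II constitutively or after activation, and many tumor and stromal cells express it when interferon-gamma induces Ciita. Class II RNA in isolated tumor cells can therefore come from the tumor cells or from host cells left among them, and in bulk RNA fewer cells of a type cannot be told apart from less RNA per cell.

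The 5 genes named H2 lie together on chromosome 17 in mm10, by the GENCODE M21 annotation. H2-Ab1 spans chr17:34257689-34269419 on the plus strand, H2-Aa spans chr17:34282744-34287823 on the minus strand and H2-Eb1 spans chr17:34305867-34316674 on the plus strand. H2-DMa is at chr17:34119541-34139101 and H2-DMb1 at chr17:34153072-34160230, both on the plus strand. CIITA acts through proteins bound to the X and Y boxes of class II promoters, so the stretch from 20 bases before the X-box core to the gene start is shown for the 2 chain genes with a RefSeq promoter entry (GRCm38.p6), on the strand of each gene. H2-Aa is read from chr17:34287824-34287924 on the minus strand and H2-Eb1 from chr17:34305756-34305866 on the plus strand. Capitals mark the X-box core, GNAACT, and the Y-box core, ATTGG.
H2-Aa: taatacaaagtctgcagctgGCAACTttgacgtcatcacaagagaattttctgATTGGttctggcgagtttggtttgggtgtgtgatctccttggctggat
H2-Eb1: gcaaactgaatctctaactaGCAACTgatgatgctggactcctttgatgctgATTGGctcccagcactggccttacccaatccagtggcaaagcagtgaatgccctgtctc

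The cores began 81 and 48 bases before the RefSeq start of H2-Aa, 91 and 59 bases before that of H2-Eb1, and 94 and 61 bases before that of H2-DMb1. The RefSeq start of H2-DMb1 lies inside the GENCODE span given above, and both of its cores fall within that span. Among 32851 RefSeq windows of 300 bases, from 250 before to 50 after a start, 42.8% held GNAACT and 37.4% held ATTGG on either strand, whereas 0.627% held the first followed by the second on the gene strand with 10 to 40 bases between them. The ordered pair was also found in H2-Eb2, another class II beta chain, and not in the 2 windows of H2-DMa or in those of H2-DMb2, H2-Oa and H2-Ob. The letters searched were chosen after these sequences had been read, and a match is a description of the window, not of binding.

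**Figure D1:**
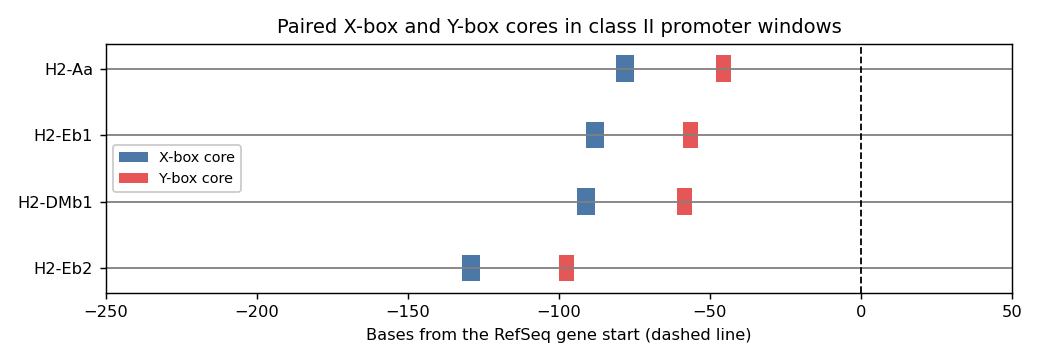
Position of the X-box core (blue) and Y-box core (red) in RefSeq promoter windows of class II genes, in bases from the gene start (dashed line). The X-box core of H2-Aa, H2-Eb1 and H2-DMb1 begins 81 to 94 bases before the RefSeq start, and that of H2-Eb2 132 bases before it.

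Total counts ranged from 14053582 to 21949942 per sample, and all 7 genes passed the filter on low counts, which kept 14340 genes. Levels are CPM, counts relative to the TMM-scaled size of each library, and means are given ± SD over 3 mice. A gene was called where its log2 fold change exceeded 0.3 in size and its p from edgeR's quasi-likelihood test, after Benjamini-Hochberg adjustment, was below 0.05. Per kilobase of exon, mean CPM in WT IgG ran from 58.5 for Cd74 through 20.3 for H2-DMb1, 15 for H2-Eb1, 7.93 for H2-Aa, 6.01 for H2-DMa and 4.09 for H2-Ab1 to 0.169 for Ciita. In A159V IgG the order was H2-DMb1 at 19.7, Cd74 at 16.0, H2-DMa at 3.05, H2-Eb1 at 2.92, H2-Aa at 0.589, H2-Ab1 at 0.099 and Ciita at 0.023.

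Under IgG, 6 of the 7 genes were lower in A159V than in WT tumor cells: the 3 chains, H2-DMa, Cd74 and Ciita. In this comparison 28% of all genes tested were called, and 12.4% were called lower. The same 6 genes had all 3 A159V samples below all 3 WT samples, as did 16% of genes tested, and 19.8% had all 3 above; none of the 7 did. The median log2 fold change was -2.36 over the 7 genes and 0.02 over all genes tested. H2-DMb1 was the exception.

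H2-Aa, the alpha chain of I-A, had 48.8, 20.6 and 21.0 CPM in WT IgG replicates 1, 2 and 4 and 1.32, 3.27 and 2.13 CPM in A159V IgG replicates 1, 2 and 5. The lowest WT sample was above the highest A159V sample. The log2 fold change was -3.74 (SE 0.68, edgeR adjusted p = 0.00204).

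H2-Ab1, the beta chain that pairs with H2-Aa, had 19.2, 5.93 and 6.42 CPM in WT IgG and 0.053, 0.336 and 0.372 CPM in A159V IgG. The A159V libraries held 1, 7 and 7 reads of this gene, against 351, 97 and 128 in WT, so its level in A159V was set by few reads. H2-Ab1 passed the low-count filter mainly through WT samples, so its direction is not independent of the filter. The log2 fold change was -5.33 (SE 0.85, edgeR adjusted p = 0.000997), the largest decrease of the 7 in this comparison.

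H2-Eb1, the beta chain of I-E, had 49.2, 20.9 and 17.2 CPM in WT IgG and 5.50, 5.28 and 6.27 CPM in A159V IgG. The A159V samples lay close together and below every WT sample. The log2 fold change was -2.36 (SE 0.49, edgeR adjusted p = 0.00441). The alpha chain genes listed for I-E, H2-Ea and H2-Ea-ps, were not in the count table. The levels of H2-Eb1 RNA are therefore no measure of I-E in these cells.

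Ciita, at chr16:10480059-10528418 on the plus strand, was low in every library. It had 1.37, 1.22 and 2.26 CPM in WT IgG, from 25, 20 and 45 reads, and 0.159, 0.288 and 0.213 CPM in A159V IgG, from 3, 6 and 4 reads. The groups did not overlap, and the log2 fold change was -2.84 (SE 0.65, edgeR adjusted p = 0.00708). Ciita passed the low-count filter mainly through WT samples, so its direction is not independent of the filter. Ciita shares 329 exonic bases with Dexi on the opposite strand, and the strand setting of the counting is not given in the sources used here. Dexi was also lower in A159V IgG (log2 fold change -0.57, SE 0.19, edgeR adjusted p = 0.0389), and how many Ciita reads come from it was not tested.

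Cd74, at chromosome 18, 60803848 to 60812652 on the plus strand, was the most abundant of the 7 genes in WT IgG, by CPM and per kilobase. It had 174, 63.8 and 57.0 CPM there and 24.3, 28.5 and 27.8 CPM in A159V IgG, with no overlap. The log2 fold change was -1.87 (SE 0.52, edgeR adjusted p = 0.0183). WT IgG replicate 1 held far more Cd74 than the other two WT samples, and without it the log2 fold change was -1.23 (adjusted p = 0.0719). Leaving out replicate 1 (adjusted p = 0.0620) or replicate 2 (adjusted p = 0.0525) of A159V IgG also ended the call.

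The chains of H2-DM differed from each other. H2-DMa had 30.3, 16.5 and 15.5 CPM in WT IgG and 9.25, 10.3 and 12 CPM in A159V IgG, with a log2 fold change of -0.98 (SE 0.27, edgeR adjusted p = 0.0167) that lost its call when replicate 1 (adjusted p = 0.0635) or 2 (adjusted p = 0.0535) of A159V IgG was left out. H2-DMb1 had 45.4, 31.5 and 25.4 CPM in WT IgG and 28.9, 34.3 and 36.1 CPM in A159V IgG. Its groups overlapped, and the log2 fold change was -0.04 (SE 0.21, edgeR adjusted p = 0.895). H2-DMb1 is a near copy of H2-DMb2, so reads may be divided between them, and H2-DMb2 was not called either (log2 fold change -0.17, adjusted p = 0.766). H2-DMa shares 360 exonic bases with Brd2 on the opposite strand, which was not called in any comparison.

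WT IgG replicate 1 was the highest sample for every gene but Ciita. Without it, the log2 fold changes were -3.27 for H2-Aa, -4.62 for H2-Ab1, -1.80 for H2-Eb1, -0.66 for H2-DMa and -3.01 for Ciita, and all 5 were still called by edgeR.

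**Figure D2:**
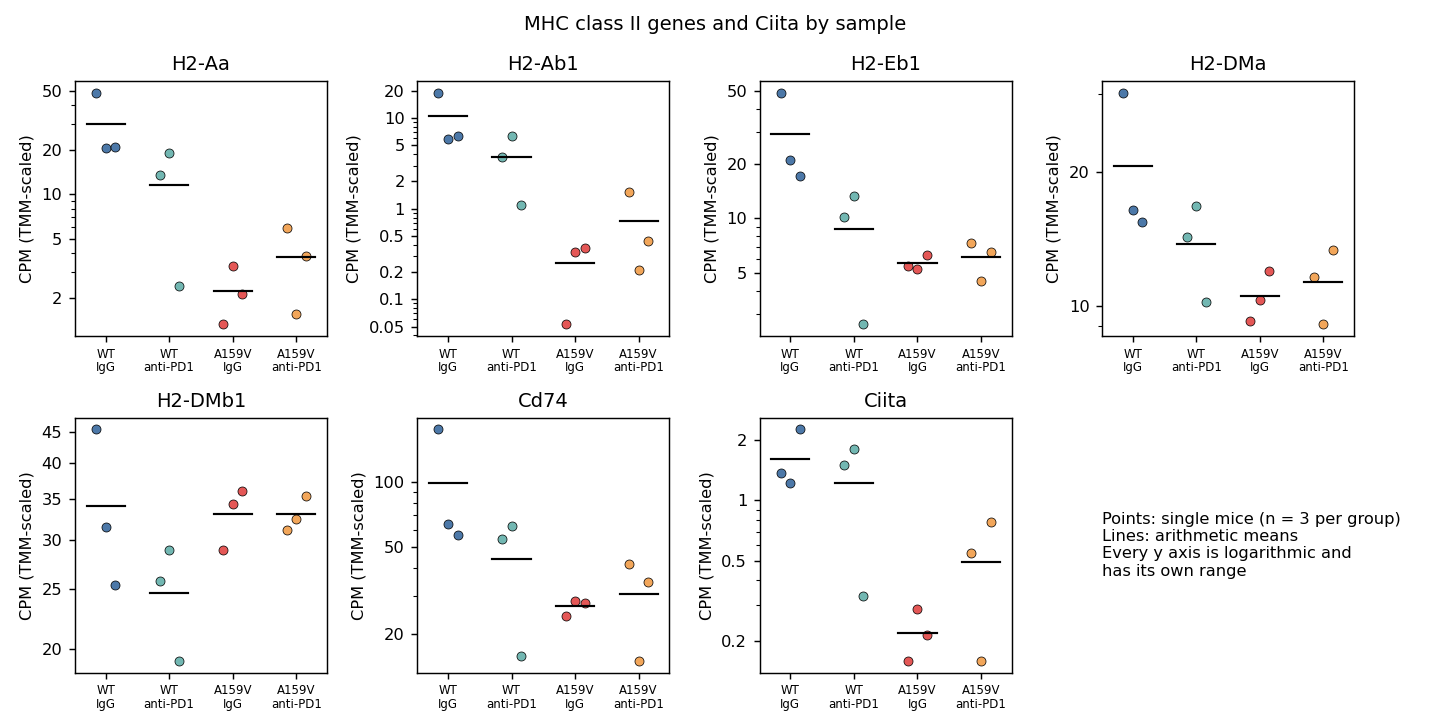
Level of each gene in CPM (logarithmic axes) in the 12 samples, with points for mice and lines for the mean of each group (n = 3). Under IgG the WT and A159V points separate for 6 genes and overlap for H2-DMb1, and WT anti-PD1 replicate 3 is the lowest WT point of every panel.

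The makeup of the chain reads also differed between WT and A159V samples. H2-Ab1 took between 12.5% (replicate 2, 95% Wilson interval 10.4 to 15%) and 18.2% (anti-PD1 replicate 3, 12.1 to 26.4%) of the reads of the 3 chain genes in the 6 WT samples. In the 6 A159V samples it took between 0.769% (IgG replicate 1, 0.136 to 4.23%) and 10.3% (anti-PD1 replicate 1, 7.25 to 14.5%). H2-Eb1 took 34.5 to 44.1% of these reads in WT and 49.8 to 80% in A159V. These shares were computed after the values had been seen and were not tested, and their intervals cover counting error only.

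Under anti-PD1, H2-Ab1 was the only gene of the 7 called, and it was lower in A159V; 21.4% of all genes tested were called in this comparison and 10.2% were called lower. It had 3.73, 6.30 and 1.11 CPM in WT anti-PD1 replicates 1 to 3 and 1.53, 0.213 and 0.445 CPM in A159V anti-PD1. The groups overlapped, and the log2 fold change was -2.33 (SE 0.75, edgeR adjusted p = 0.0428). The call was lost without WT replicate 1 (adjusted p = 0.0865) or 2 (0.165), A159V anti-PD1 replicate 2 (0.134) or 3 (0.146), and A159V IgG replicate 2 (0.0531).

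H2-Aa had 13.6, 18.9 and 2.39 CPM in WT anti-PD1 and 5.88, 1.54 and 3.84 CPM in A159V anti-PD1. WT replicate 3 lay within the A159V range, and the log2 fold change was -1.63 (SE 0.64, edgeR adjusted p = 0.0851); without that sample it was -2.11 (adjusted p = 0.0216). The log2 fold changes of the other genes were -1.28 for Ciita, -0.53 for Cd74, -0.50 for H2-Eb1, -0.28 for H2-DMa and 0.43 for H2-DMb1, and none was called. H2-DMb1 had all 3 A159V samples above all 3 WT samples, as did 32.6% of genes tested, and none of the 7 had all 3 below, against 23.5% of genes.

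In WT tumor cells, the log2 fold changes of all 7 genes for anti-PD1 versus IgG were negative, and edgeR called none of them; 0.628% of all genes tested were called and 0.132% were called lower. Of the 7, 6 had an unadjusted p under 0.05, as did 3937 of all 14340 genes tested. DESeq2 called 1 of the 7, H2-Eb1, and 1478 of all 14340 genes tested. Limma voom called 0 of the 7 and 188 of all genes tested. H2-Eb1 had 10.2, 13.3 and 2.62 CPM in WT anti-PD1, each below the WT IgG samples, with a log2 fold change of -1.75 (SE 0.48, edgeR adjusted p = 0.0766; DESeq2 adjusted p = 0.00845). With the replicate number as a block, edgeR called H2-Eb1 (-1.79, adjusted p = 0.0139) and H2-DMb1 (-0.60, adjusted p = 0.0429). That fit called 4650 of all 14340 genes tested. Number 4 occurs only in WT IgG and number 5 only in A159V IgG, so the block fits those samples exactly. The IgG groups then rest on replicates 1 and 2 alone.

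H2-Aa also had no overlap between the WT groups (log2 fold change -1.38, SE 0.60, edgeR adjusted p = 0.162), and 15.8% of genes tested had all 3 anti-PD1 samples below all 3 IgG samples and 18.8% had all 3 above. Cd74 had 54.5, 62.4 and 15.9 CPM in WT anti-PD1, which overlapped the IgG samples (log2 fold change -1.15, SE 0.51, edgeR adjusted p = 0.166). Ciita had 1.5, 1.81 and 0.334 CPM and differed least in relation to its error (log2 fold change -0.43, SE 0.53, edgeR adjusted p = 0.623). Without WT IgG replicate 4, H2-Eb1 (-2.02, adjusted p = 0.0149) and H2-DMb1 (-0.65, adjusted p = 0.0335) were called, as were 3458 of all 14646 genes tested. Other omissions made the decreases smaller. With 1 sample left out, the log2 fold change ranged from -2.18 to -1.15 for H2-Eb1 and from -0.65 to -0.22 for H2-DMb1. It ranged from -1.91 to -0.85 for H2-Aa, from -2.11 to -0.76 for H2-Ab1 and from -1.48 to -0.46 for Cd74. The edgeR adjusted p reached 0.264 for H2-Eb1 and 0.677 for Cd74.

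In A159V tumor cells, anti-PD1 was followed by no called gene among the 7, and 0% of all genes tested were called. None had an unadjusted p under 0.05, against 521 of all 14340 genes tested, and DESeq2 and limma voom also called 0 of the 7. Of all genes tested, DESeq2 called 2 and limma voom 0. The log2 fold changes ran from -0.00 for H2-DMb1 to 1.48 for H2-Ab1 (SE 0.99), and the groups of every gene overlapped; of genes tested, 6.5% had all 3 anti-PD1 samples below and 4.51% all 3 above. The A159V anti-PD1 means were 3.75 ± 2.17 CPM for H2-Aa, 30.5 ± 13.9 CPM for Cd74 and 0.494 ± 0.313 CPM for Ciita, against 2.24 ± 0.977, 26.8 ± 2.26 and 0.220 ± 0.065 CPM in A159V IgG.

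The difference between the treatment effects in A159V and in WT was positive for all 7 genes, from 0.47 for H2-DMb1 to 3.00 for H2-Ab1 on the log2 scale. EdgeR's interaction test called none of the 7 (0.00697% of all genes tested), and DESeq2 and limma voom called 0 of them. Of all 14340 genes tested, DESeq2 called 295 and limma voom 1. Of the 7, 3 had an unadjusted p under 0.05, as did 2517 of all 14340 genes tested. With the replicate block, H2-Eb1 was called (2.27, adjusted p = 0.0386), as were 2760 of all 14340 genes tested. The block fits WT IgG replicate 4 and A159V IgG replicate 5 exactly, so that call uses only replicates 1 and 2 of each IgG group. A difference between the genotypes in their response to anti-PD1 was not shown for these genes.

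**Figure D3:**
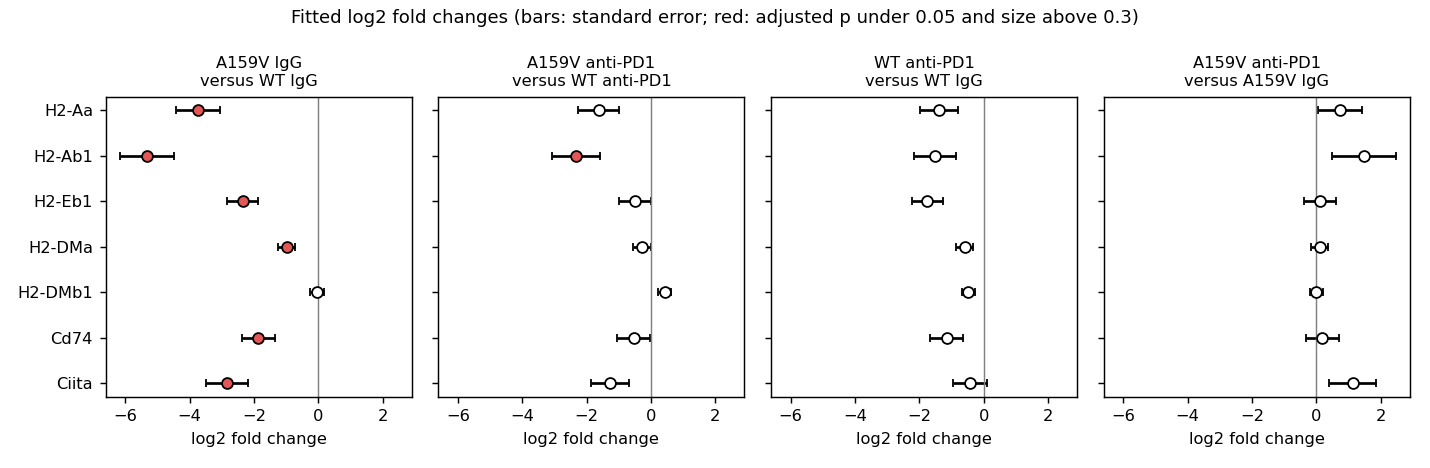
Fitted log2 fold changes of the 7 genes in the 4 pairwise comparisons, with bars for the standard error and red points for called genes. For A159V IgG versus WT IgG 6 genes are red, H2-Ab1 alone for the genotypes under anti-PD1, and none for anti-PD1 versus IgG within a genotype.

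Of the 38 other genes listed for the class II pathway, 36 were in the table and 32 were tested. In A159V IgG versus WT IgG, 7 were higher and 6 were lower, and the median log2 fold change was -0.09. Of all genes tested, 15.6% were called higher and 12.4% were called lower in this comparison. The lysosomal proteases Lgmn (log2 fold change 1.14), Ctsb (0.82) and Ctsd (0.35) and the lysosomal thiol reductase Ifi30 (0.60) rose, as did the kinase Jak1 (0.67), March8 (0.44) and the costimulatory ligand Cd80 (2.66). The interferon-gamma receptor chain Ifngr1 (-0.49), the interferon-induced factor Irf1 (-0.78), Usf1 (-0.52), the feedback inhibitor Socs1 (-0.86), the class II ubiquitin ligase March1 (-1.46) and the class II receptor Lag3 (-2.07) fell. Cd80 passed the low-count filter mainly through A159V samples and March1 mainly through WT samples. Their directions are therefore not independent of the filter.

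Under anti-PD1, 5 of these genes were higher in A159V, namely Lgmn (0.86), Ctsb (0.39), Ifi30 (0.81), Nfyc (0.45) and Cd80 (2.02), and 3 were lower, namely Ifngr1 (-0.79), Socs1 (-0.87) and Lag3 (-1.42). Of all genes tested, 11.2% were called higher and 10.2% were called lower in that comparison. Irf1 had a log2 fold change of -0.02 there (edgeR adjusted p = 0.949). Within each genotype edgeR called 0 of the 32 for anti-PD1 versus IgG, with an unadjusted p under 0.05 for 10 in WT and 0 in A159V. Of all 14340 genes tested, 3937 in WT and 521 in A159V had such a p.

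The identity of the cells was examined with marker genes. Among all genes tested, 15.6% were called higher and 12.4% lower in A159V under IgG, and 11.2% and 10.2% under anti-PD1. For WT anti-PD1 versus WT IgG, 0.495% were called higher. The counts of called markers below are to be read beside these shares. Summed over 5 epithelial keratin and adhesion genes, levels were 0.70 to 4.02 CPM in the 12 samples, so the defining epithelial markers were near 0 in cells labelled as adenocarcinoma. Ptprc, which encodes the pan-leukocyte protein CD45, had 17, 3 and 56 reads in WT IgG, 174, 212 and 134 in WT anti-PD1, 0, 2 and 4 in A159V IgG, and 1, 1 and 5 in A159V anti-PD1. It was lower in A159V than in WT under IgG, where the samples overlapped (log2 fold change -3.62, edgeR adjusted p = 0.0143), and under anti-PD1 (-6.25, adjusted p = 0.000357), and had a log2 fold change of 2.92 for WT anti-PD1 versus WT IgG (adjusted p = 0.0544). Ptprc passed the low-count filter mainly through WT anti-PD1, so its direction against that group is not independent of the filter.

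The whole pan-leukocyte list was also summed. Over its 6 genes, 1 was higher (Ptpn6) and 3 were lower (Ptprc, Coro1a and Cd52) in A159V IgG than in WT IgG, and 2 were higher in WT anti-PD1 than in WT IgG. Summed over 6 pan-leukocyte genes, levels were 5.20 to 15.2 CPM in WT IgG, 31.5 to 43.8 in WT anti-PD1, 6.32 to 8.02 in A159V IgG and 7.08 to 8.40 in A159V anti-PD1. WT anti-PD1 exceeded WT IgG in this sum in every sample, and its mean levels of all 7 class II genes were below those of WT IgG without a call. The reads of the 3 chains together, in the order of the Ptprc reads above, were 2145, 774 and 890 in WT IgG, 532, 574 and 110 in WT anti-PD1, 130, 185 and 165 in A159V IgG, and 271, 118 and 194 in A159V anti-PD1. The A159V libraries were thus low in both, the WT IgG libraries were highest in chain reads, and the WT anti-PD1 libraries were highest in Ptprc reads. Within WT anti-PD1 the library with most Ptprc reads had most chain reads and the one with fewest had fewest. In each of the other groups the library with most Ptprc reads did not have most chain reads.

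Macrophage markers differed in level and in direction. The macrophage genes C1qa, C1qb and C1qc together had 12 to 27 reads in WT IgG, 13 to 29 in WT anti-PD1, 6 to 15 in A159V IgG and 6 in each A159V anti-PD1 library. Csf1r, the receptor that macrophages depend on, had 1 to 9 reads in every library, and Adgre1, which encodes F4/80, had 0 to 2. H2-Aa reads per C1q read ranged from 27.9 to 33.1 in WT IgG, 1.95 to 21.7 in WT anti-PD1, 4.0 to 4.53 in A159V IgG and 4.83 to 18 in A159V anti-PD1. Of the 12 macrophage genes 4 were tested, with 1 higher and 1 lower in A159V IgG. Cd68, the most abundant of them, had 399 to 444 reads in WT IgG and 700 to 942 in A159V IgG (log2 fold change 0.81, edgeR adjusted p = 0.00826), and Fcgr1, an Fc receptor, was the lower one (-2.29, adjusted p = 0.0498). The sum of the list, most of it Cd68 and Lyz2, was 26.2 to 31.7 CPM in WT IgG, 33.1 to 48.6 in WT anti-PD1, 39.7 to 57.8 in A159V IgG and 42.4 to 45.4 in A159V anti-PD1.

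Of the 9 dendritic cell genes 5 were tested, with 1 higher and 2 lower in A159V IgG. The lower ones were Clec9a, a receptor of cross-presenting dendritic cells, with 41, 25 and 30 reads in WT IgG and 6, 0 and 6 in A159V IgG (log2 fold change -3.05, edgeR adjusted p = 0.00557), and Ccr7, the chemokine receptor of migrating dendritic cells and of T cells, with 69, 40 and 62 reads against 18, 23 and 17 (-1.65, adjusted p = 0.00208). Both were also lower in A159V under anti-PD1 (-3.73, adjusted p = 0.00245, and -1.69, adjusted p = 0.00177). In both comparisons no A159V sample reached a WT sample for either gene. Clec9a passed the low-count filter mainly through WT samples, so its direction is not independent of the filter. Between genotypes under IgG both genes were lower along with the class II chains, and their part in the result was not tested. The sum of the list, most of it the transcription factor Zbtb46, was 17.8 to 23.2 CPM in WT IgG, 19.7 to 27.4 in WT anti-PD1, 14.8 to 17.3 in A159V IgG and 16.6 to 17.3 in A159V anti-PD1. Itgax, which encodes CD11c, was higher in A159V IgG (24, 28 and 24 reads against 10, 14 and 15; log2 fold change 0.85, edgeR adjusted p = 0.0425), and the reads of Flt3 overlapped, with 9 to 23 in WT IgG and 7 to 11 in A159V IgG. Of the 6 B cell genes 3 were tested and 2 were higher in A159V IgG, and Ms4a1, which encodes CD20, had 0 reads in all 12 samples. The T cell marker Cd3e had 2, 0 and 1 reads in WT IgG and 16, 24 and 8 in WT anti-PD1.

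Fibroblast genes were far more abundant than leukocyte genes and moved with the genotype. Summed over 5 genes, most of it Dcn, levels were 236 to 459 CPM in WT IgG, 353 to 603 in WT anti-PD1, 159.3 to 227 in A159V IgG and 131 to 186 in A159V anti-PD1. All 5 were tested, and 3 were lower in A159V IgG than in WT IgG, as were 12.4% of all genes tested. These 3 were the matrix genes Dcn (log2 fold change -1.35, edgeR adjusted p = 0.00624), Lum (-2.44, adjusted p = 0.000923) and Dpt (-3.94, adjusted p = 0.00655), while Pdgfra (0.62, adjusted p = 0.113) and Pdgfrb (-0.66, adjusted p = 0.159) were not called. Under anti-PD1, 3 of the 5 were lower in A159V, as were 10.2% of all genes tested. They were Dcn (-1.86, adjusted p = 0.00120), Lum (-3.49, adjusted p = 0.000105) and Pdgfrb (-1.57, adjusted p = 0.00647), and Dpt was not called (-1.92, adjusted p = 0.0963). EdgeR called 0 of them for anti-PD1 within either genotype (unadjusted p under 0.05 for 2 in WT and 0 in A159V, against 3937 and 521 of all 14340 genes tested). Their part in the class II differences was not tested.

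Of the T cell genes 4 of 6 were tested, and all 4 were lower in A159V under anti-PD1. The 6 together had 98 to 226 reads in WT anti-PD1, 23 to 25 in WT IgG, 4 to 16 in A159V IgG and 10 to 15 in A159V anti-PD1. They passed the low-count filter mainly through WT anti-PD1, so their direction against that group is not independent of the filter. Of the endothelial genes 2 of 5 were tested, and both were lower in A159V under anti-PD1. Of the NK cell genes 2 of 4 were tested, with 1 higher and 1 lower in A159V under each treatment, and the 1 neutrophil gene tested of 5 was not called. The 1 epithelial gene tested of 5 was lower in A159V under anti-PD1, where the 5 together had 13 to 17 reads in A159V and 36 to 60 in WT.

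With the mean log2 CPM of the pan-leukocyte genes as a covariate, H2-Aa (-3.51, edgeR adjusted p = 0.0197), H2-Ab1 (-5.0, adjusted p = 0.0118) and H2-Eb1 (-2.21, adjusted p = 0.0392) were called for A159V IgG versus WT IgG, and Ciita (-2.43, adjusted p = 0.0674), Cd74 (-1.72, adjusted p = 0.114) and H2-DMa (-0.86, adjusted p = 0.125) were not. With the macrophage score, those 3 chains and Ciita (-2.72, adjusted p = 0.0275) were called. Both scores differ between the groups, so such a fit takes out part of any difference between them, and the cells of origin of the class II reads cannot be assigned from bulk counts.

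**Figure D4:**
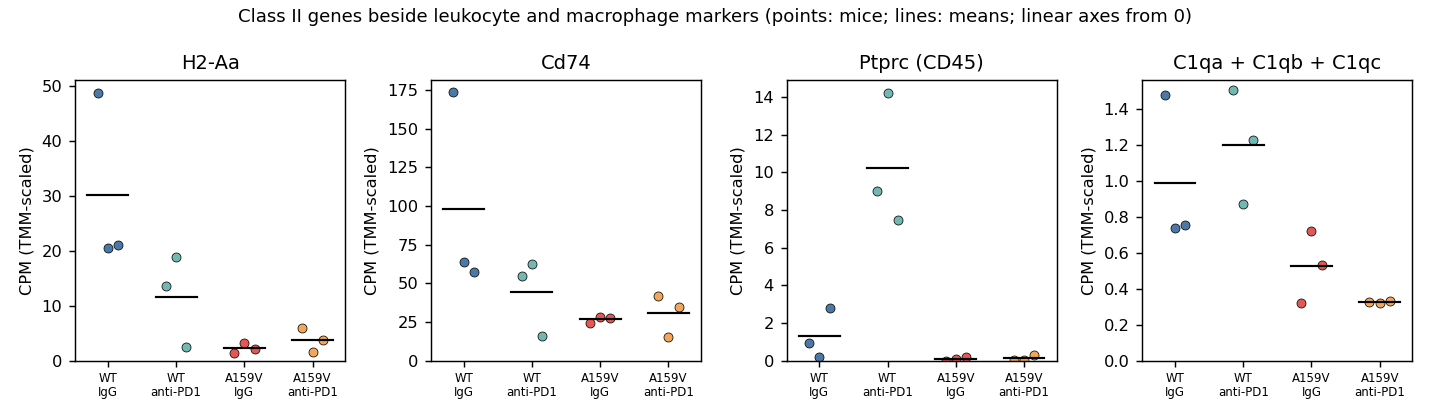
Levels of H2-Aa and Cd74 beside Ptprc and the summed C1q genes, in CPM on linear axes from 0, with points for mice and lines for group means (n = 3). H2-Aa and Cd74 have their highest mean in WT IgG, and Ptprc has its highest in WT anti-PD1.

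Over the 12 samples, the 10 genes whose log2 CPM was most like the mean of the 7 were Psmb9, H2-T22, Batf2, Hist1h2ad, Lipt2, Ido2, Apol7b, Serpina3g, Rnf135 and Pla2g16, with Pearson r from 0.890 to 0.924 among 14333 genes. These points share groups, and r is given as a description. When group means were first removed, the list was Ido1 (r = 0.960), Il15ra, Nppb, Batf2, Acod1, Wdr5, Il18bp, Keap1, Apol10b and E2f1 (r = 0.891), which shares 1 gene, Batf2, with the first. Among the 7 genes, H2-DMb1 had r from -0.03 to 0.49 with the others, and the other pairs had r from 0.75 to 0.97.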

How the data were processed

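Bulk RNA-seq was analyzed for 12 samples in 4 groups of 3 mice, grouped by their labels. The authors sequenced paired reads of 100 bases, aligned them to mm10 with STAR, counted reads per gene with summarizeOverlaps and deposited raw counts without normalization. How overlapping features and strand were handled in counting is not given in the sources used here. Symbols, positions and exon lengths came from GENCODE M21, which matched 32064 of 33219 features.

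The deposited counts entered edgeR 4.0.16 (R 4.3.3) after filterByExpr and TMM scaling. All 12 samples shared 1 quasi-likelihood fit with a mean per group and 8 residual degrees of freedom. Benjamini-Hochberg adjustment covered 14340 genes. Correlations used log2 CPM with a prior count of 2. The lists were written from general knowledge, and the genes and lists were chosen with earlier results of these data known. The genes named are the 7 members, pathway genes called in a pairwise comparison or fixed by name, the defining cell markers, and the 10 genes most like the members. Other marker genes (Ptpn6, Coro1a, Cd52, Cd68, Lyz2, Fcgr1, Adgre1, Clec9a, Ccr7, Zbtb46, Ms4a1 and the fibroblast genes) were named after their values were seen. Replicates are separate mice according to the study.

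Alternatives were RLE and upper-quartile scaling, other count filters, DESeq2 1.42.0, voom in limma 3.58.1, the compared groups alone, the replicate number as a block, marker scores as covariates, other fold limits and each sample left out. The edgeR, DESeq2 and voom code was tested on simulated data. Figures used Python 3.11.15 and matplotlib 3.10.9. The single-cell data of the study were not analysed here.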

Additional observations from a re-analysis of the deposited data

How the results depend on the processing

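For A159V IgG versus WT IgG, 6 of the 7 genes were called, and the number called was 3 with the pan-leukocyte score as a covariate and 4 to 6 with 1 sample left out. With the macrophage score the 3 chains and Ciita were called. A log2 fold limit of 1 excludes H2-DMa (-0.98), and a minimum of 10 counts in every sample removes H2-Ab1 and Ciita. For A159V anti-PD1 versus WT anti-PD1, 1 gene was called. It was 2 without a filter on low counts and with only the groups compared, 0 with voom and with either marker score, and 0 to 2 with 1 sample left out. With at least 10 counts in every sample it was 0. That filter removes H2-Ab1, the gene called, and Ciita, so the loss of the H2-Ab1 call is by construction. For WT anti-PD1 versus WT IgG it was 0, against 1 without a filter or with DESeq2, and 0 to 2 with 1 sample left out. With the replicate block it was 2 there and 1 for the interaction, and the block changed no other count by over 1.5 times. Of all 14340 genes tested, the block fit called 4650 for WT anti-PD1 versus WT IgG and 2760 for the interaction. The replicate numbers belong to different mice, and deviations of same-numbered samples correlated between -0.178 and 0.205. Numbers 4 and 5 occur in 1 sample each, under IgG, and the block fits those samples exactly. The cause of the other differences was not tested.

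Of 758 log2 fold changes under the alternatives, 705 kept their direction and side of the threshold, 19 lost and 10 gained significance, and 24 reversed. The reversed values, none of them called, were as follows. For the genotypes under IgG, H2-DMb1 was 0.032 with the macrophage score and ranged from -0.21 to 0.16 with 1 sample left out. For the genotypes under anti-PD1, the macrophage score gave 0.20 for H2-Eb1, 0.20 for H2-DMa and 0.48 for Cd74, and the pan-leukocyte score gave 0.0022 for H2-Eb1, 0.14 for H2-DMa and 0.062 for Ciita. For anti-PD1 in A159V, H2-DMb1 was 0.013 without a filter, 0.033 with at least 10 counts, 0.00077 with voom, 0.021 with only the groups compared, 0.12 with the replicate block and 0.026 with the macrophage score. With 1 sample left out, Ciita ranged from -0.81 to 0.022 for anti-PD1 in WT, and for anti-PD1 in A159V H2-Eb1 ranged from -0.045 to 0.29, H2-DMa from -0.026 to 0.25, H2-DMb1 from -0.093 to 0.093 and Cd74 from -0.11 to 0.51. Ciita and, in A159V, H2-Ab1 rest on few reads, which limits the precision of their fold changes.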
